A study of Homo sapiens with 4 samples.

Results

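Heat shock proteins and their co-chaperones were followed in human neuroendocrine tumour cells of 2 lines that had received DAXX siRNA. The set was a list of 44 gene symbols covering HSP70, HSP110, HSP90, small heat shock proteins, the mitochondrial chaperonin, heat shock factors, and J proteins with the DNAJ prefix. Of these, 40 had a probe set annotated to that symbol alone, out of 19775 genes on the arrays, and all 40 passed a low-signal filter (a mean of at least 4.85 on the log2 scale, the 40th percentile of all probe sets). The near-identical pair HSPA1A and HSPA1B, and HSPA8, have probe sets annotated to several genes and are given no value, and HSF2 was not analysed here.

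Heat shock proteins bind unfolded or unstable polypeptides and keep them from aggregating. HSP70 does so in cycles of ATP hydrolysis that J proteins start, by delivering clients and stimulating the ATPase, and that nucleotide exchange factors such as HSP110 and BAG3 end. HSF1 is the transcription factor that raises many of these genes under heat or proteotoxic stress, and DAXX, a histone H3.3 chaperone, has been reported to bind HSF1 and to promote its activity.

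The arrays were DAXX-KD QGP1, control QGP1, DAXX-KD NCI-H727 and control NCI-H727, 1 one-colour Affymetrix array each. By label, QGP1 comes from a pancreatic neuroendocrine tumour and NCI-H727 from a bronchial one, and the description of all 4 samples speaks of QGP1 cells high in ALDH. All 4 cultures were electroporated with siRNA at a final 50 nM, either DAXX siRNA (2 are named, and pooling is not stated) or a universal negative control, and no untransfected cells are among the 4 samples. With 1 array per group, values within a line have no replicate check and no p-value.

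Array medians lay between 5.31 and 5.36 on the log2 scale. DAXX itself read 6.56 in DAXX-KD QGP1, against 8.52 in its control, and 6.14 in DAXX-KD NCI-H727, against 7.35 in its control, so 25.7% and 43.3% of the control signal was left. All 10 neuroendocrine and all 5 epithelial markers lay above the filter level in all 4 arrays. Of 13 fibroblast, leukocyte and endothelial markers, 7 lay above the filter level in all 4 arrays (COL1A1, DCN, PDGFRB, CD3E, ITGAM, PECAM1 and VWF), while COL3A1, LUM, PTPRC and CDH5 were under it in every array. The means of these 3 lists lay between 4.54 and 5.13, and their part in the results was not tested. Line markers went against the line labels in part: the lung factor NKX2-1 read 3.23 and 3.35 in the DAXX-KD and control arrays labelled NCI-H727, against 8.38 and 8.77 in those labelled QGP1. The lung neuroendocrine peptide GRP read 4.12 and 5.37 in arrays labelled NCI-H727, against 11.8 and 12.8 in those labelled QGP1, while the islet factor NKX2-2 read 9.25 and 9.17 in arrays labelled NCI-H727, against 5.93 and 4.80 in those labelled QGP1. Some other islet markers were higher in the arrays labelled QGP1: SST read 11.8 and 11.9 in NCI-H727, against 13.1 and 13.8 in QGP1, PAX6 5.67 and 5.12 against 6.77 and 6.64, and ISL1 8.94 and 8.82 against 9.46 and 9.61. PDX1 was slightly higher in NCI-H727 (5.43 and 5.54 against 5.23 and 5.30), and MNX1 had no common direction (8.72 and 8.82 against 9.03 and 8.54). INS, GCG and NKX6-1 were under the filter level in every array. The lung markers CALCA (13.5 and 13.5 against 13.7 and 13.7), SFTPB (6.96 and 6.67 against 6.64 and 6.92) and SFTPC (7.07 and 6.80 against 6.75 and 6.72) differed little. The source field of the NCI-H727 samples also names QGP1, so line names here are those of the sample titles and every direction between lines rests on them.

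Most chaperone genes lay close to their control levels in both lines, and 1 J protein, DNAJB4, stood lower in both. Every difference is a log2 value, DAXX-KD minus its control, and where a pair is given without line names the first is QGP1 and the second NCI-H727. In QGP1, 0 of 40 members were 2-fold higher or more, where 0.259% of the 14648 genes past the filter were, and 0 were 2-fold lower (0.232%). In NCI-H727, 0 members were 2-fold higher, where 0.177% of all genes were, and 1 was 2-fold lower (1.32%). At 1.5-fold, 1 member was lower in QGP1 (1.32% of all genes) and 2 in NCI-H727 (4.96%). No member was 1.5-fold higher in QGP1 (1.74% of all genes) or in NCI-H727 (1.6%). DNAJB4 was the 1 member 1.5-fold lower in both lines, where 0.703% of all genes were. The other counted member was HSPA13, and the remaining 38 were within 1.5-fold of control in both lines.

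**Figure D1:**
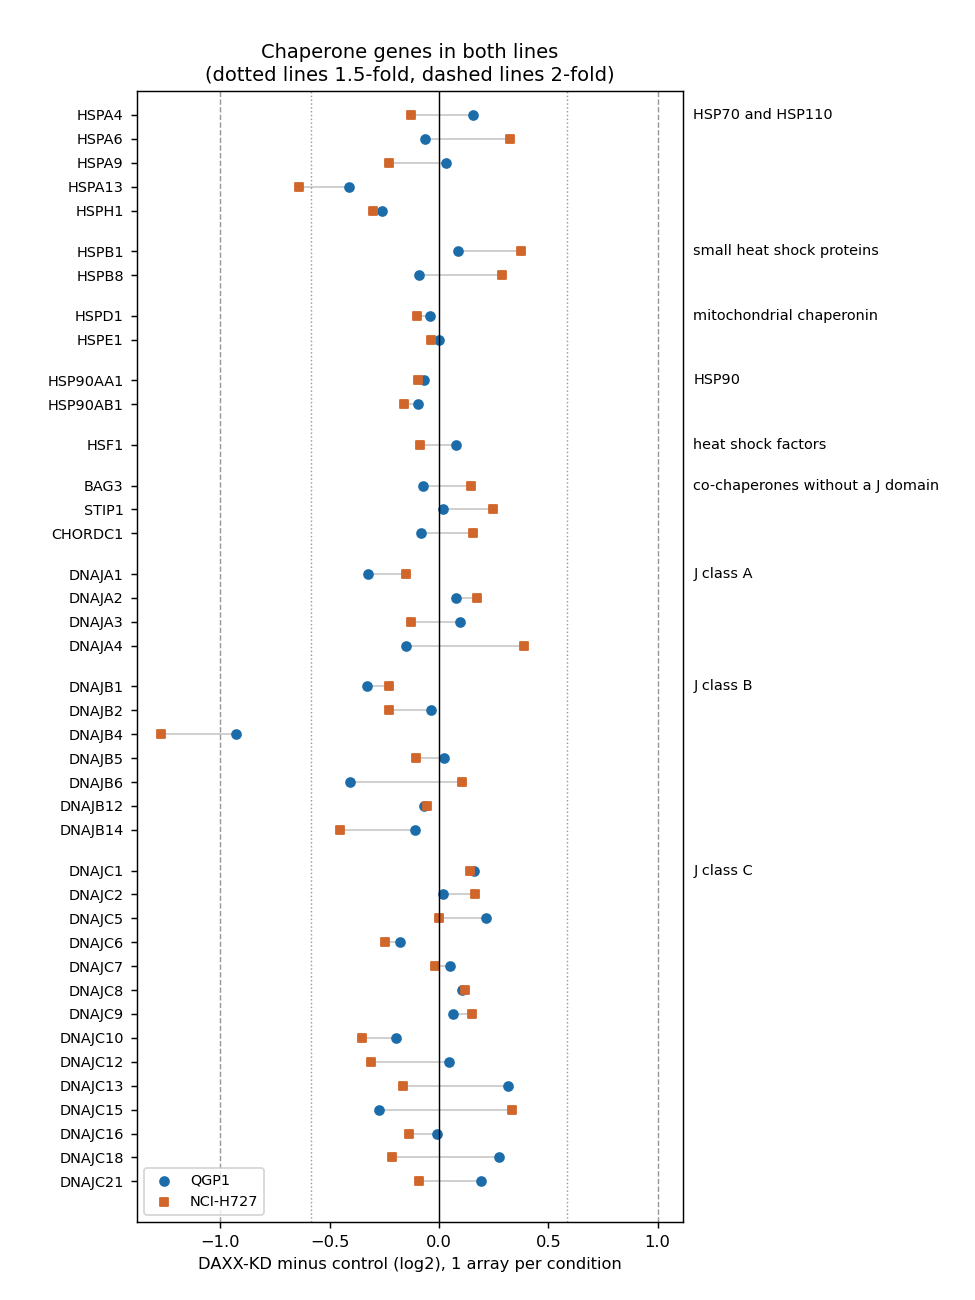
Each row is 1 chaperone gene, grouped by role. The horizontal axis is the log2 difference of DAXX-KD from control, with circles for QGP1 and squares for NCI-H727, 1 array per condition and so no error bar. DNAJB4 is the 1 gene left of the dotted 1.5-fold line in both lines, at -0.93 and -1.27.

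Over the 40 members the median difference was -0.02 in QGP1 and -0.09 in NCI-H727, beside medians of 0.02 and 0.02 over all genes past the filter. In QGP1 22 members were below 0 (46.2% of all genes were) and in NCI-H727 26 were (47.3% of all genes). Both lines pointed lower for 15 members, where 22.6% of all genes did, and both higher for 7 members, where 28.8% of all genes did. The remaining 18 pointed opposite ways. In these bulk samples, fewer cells expressing a gene and less RNA per cell cannot be told apart.

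A joint limma fit used all 4 arrays with cell line as a block, so that the lines served as the repeats of the knockdown. Nothing in the labels says that cultures were repeated, so the p-values hold no spread between repeated cultures. Their error is how far the knockdown differences of the 2 lines disagree, pooled with a prior over all genes, and it may be technical in part. The same error serves the cell line coefficient given further below. At a Benjamini-Hochberg adjusted p of 0.05 the fit called 0 of 14648 genes (0%) and so 0 members, and the lowest adjusted p was 0.374. By unadjusted limma p under 0.05, 2 members were lower (4.12% of all genes) and 0 higher (2.8%), and the 2 were DNAJB4 and HSPA13.

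DNAJB4, a cytosolic class B J protein that works with HSP70, read 6.48 in DAXX-KD QGP1, against 7.41 in control QGP1. In NCI-H727 it read 5.81 in the DAXX-KD array, against 7.08 in the control. Both knockdown arrays were lower than both controls. The level was 1.90-fold lower with DAXX siRNA in QGP1, in NCI-H727 it was 2.41-fold lower, and the joint limma difference was -1.10 (SE 0.15, lower in 2 of 2 lines, unadjusted p = 0.00059, adjusted p = 0.374). Its second probe set read 5.69 and 5.51 in the DAXX-KD arrays of QGP1 and NCI-H727, against 6.31 and 5.95 in their controls. That probe set was lower by less, at -0.62 and -0.44. Averaged over both probe sets, the NCI-H727 difference was -0.86, which is short of 2-fold.

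The sequences around the start sites RefSeq gives DNAJB4 are shown because this member had the widest difference of the 40. Capitals mark the first 50 transcribed bases after 250 upstream bases (assembly GRCh38.p14).
DNAJB4, upstream start (chr1:77978925-77979224, plus strand): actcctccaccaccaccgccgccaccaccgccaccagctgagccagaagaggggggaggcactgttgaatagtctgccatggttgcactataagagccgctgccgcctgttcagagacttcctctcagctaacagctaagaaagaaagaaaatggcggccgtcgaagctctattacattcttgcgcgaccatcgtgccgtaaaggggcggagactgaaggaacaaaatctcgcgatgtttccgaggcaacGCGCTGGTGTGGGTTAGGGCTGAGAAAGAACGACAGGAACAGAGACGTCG
DNAJB4, downstream start (chr1:78004689-78004988, plus strand): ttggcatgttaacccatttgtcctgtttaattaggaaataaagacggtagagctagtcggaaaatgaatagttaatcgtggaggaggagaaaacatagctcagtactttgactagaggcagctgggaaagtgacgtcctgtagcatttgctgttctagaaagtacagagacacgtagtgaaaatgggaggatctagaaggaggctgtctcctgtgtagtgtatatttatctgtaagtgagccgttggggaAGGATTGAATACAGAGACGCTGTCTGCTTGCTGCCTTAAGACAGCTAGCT
The upstream window holds 21 CG dinucleotides and the downstream one 7, beside a median of 14 over all 35116 windows of the table. Neither window holds a heat shock element by the pattern searched below.

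HSPA13, a microsomal HSP70 relative that lacks the peptide-binding domain, was the other member past 1.5-fold. It read 9.67 in DAXX-KD QGP1, against 10.1 in control, and 8.83 in DAXX-KD NCI-H727, against 9.48 in control. It was 1.33-fold lower with DAXX siRNA in QGP1, and in NCI-H727 it was 1.56-fold lower (joint limma difference -0.53, SE 0.14, lower in 2 of 2 lines, adjusted p = 0.567). The second probe set differed by -0.02 and -0.41, so in QGP1 the difference rested on 1 probe set.

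The other HSP70 and HSP110 proteins did not reach 1.5-fold. HSPH1, an HSP110 that exchanges the nucleotide of HSP70, read 10.9 in DAXX-KD QGP1, against 11.1 in control, and 11.0 in DAXX-KD NCI-H727, against 11.3 in control. Its differences of -0.26 and -0.30 were nearly equal in size, and its 3 probe sets were lower in both lines, between -0.37 and -0.26 in the first line and between -0.64 and -0.30 in the second. Its adjusted p in the joint limma fit was 0.778. HSPA9, the mitochondrial HSP70 mortalin, differed by 0.03 and -0.23, and the strictly heat-induced HSPA6 by -0.06 and 0.32.

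HSPA4, another HSP110, depended on the probe set. The probe set with the highest mean differed by 0.16 and -0.13, and 2 others by between -0.25 and 0.09. The 4th differed by -0.53 and -1.11, with values of 9.55 in DAXX-KD QGP1, against 10.1 in control, and of 6.22 in DAXX-KD NCI-H727, against 7.33 in control.

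Both cytosolic HSP90 genes lay close to control. HSP90AA1, the inducible form, read 13.5 in DAXX-KD QGP1, against 13.6 in control, and 13.5 in DAXX-KD NCI-H727, against 13.6 in control. HSP90AB1, the constitutive form, read 12.5 against 12.6 in QGP1 and 12.2 against 12.3 in NCI-H727, in each case DAXX-KD against control. Differences were -0.07 and -0.10 for HSP90AA1 and -0.09 and -0.16 for HSP90AB1. All 4 probe sets of the first gene and all 3 of the second were lower in both lines, by up to 0.44 and 0.53 in NCI-H727.

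The mitochondrial chaperonin, a folding chamber made of HSPD1 and capped by HSPE1, also lay close to control. HSPD1 read 13.7 in both QGP1 arrays and 13.6 in DAXX-KD NCI-H727, against 13.7 in control. HSPE1 read 12.6 in both QGP1 arrays and 12.2 in both NCI-H727 arrays. Differences were -0.04 and -0.10 for HSPD1 and -0.002 and -0.04 for HSPE1, all smaller than the SD between probe sets of 1 gene (0.202 in the first line, 0.275 in the second), a spread that carries no error between cultures. Other HSPD1 probe sets past the filter ranged between -0.35 and 0.44 in NCI-H727.

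Small heat shock proteins, which hold unfolding clients without ATP, pointed higher in NCI-H727. HSPB1 read 8.47 in DAXX-KD QGP1, against 8.38 in control, and 8.86 in DAXX-KD NCI-H727, against 8.48 in control. Its differences were 0.09 and 0.37. HSPB8, a partner of BAG3 in selective autophagy, differed by -0.09 and 0.29, and by -0.58 and 0.09 at its second probe set. BAG3 read 10.5 in DAXX-KD QGP1, against 10.6 in control, and 10.4 in DAXX-KD NCI-H727, against 10.2 in control.

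STIP1, which hands clients from HSP70 to HSP90, differed by 0.02 and 0.25, and CHORDC1, an HSP90 co-chaperone, by -0.08 and 0.16. The second STIP1 probe set differed by -0.22 in NCI-H727, so its direction there depended on the probe set. HSF1 itself read 7.67 in DAXX-KD QGP1, against 7.60 in control, and 7.61 in DAXX-KD NCI-H727, against 7.70 in control. Its differences, 0.08 and -0.09, had opposite signs and were within the spread between probe sets.

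Among class B J proteins 6 of 7 were below 0 in each line, where 46.2% of all genes were in QGP1 and 47.3% in NCI-H727. Their medians were -0.11 in QGP1 and -0.23 in NCI-H727. With probe sets averaged, 5 of 6 were below 0 in QGP1 and 4 of 6 in NCI-H727. After a second quantile normalization 6 and 5 of 7 were. DNAJB1, the main heat-induced partner of HSP70, read 9.48 in DAXX-KD QGP1, against 9.80 in control, and 9.01 in DAXX-KD NCI-H727, against 9.24 in control. Its level was 1.25-fold lower with DAXX siRNA in QGP1, and in NCI-H727 it was 1.17-fold lower (joint limma adjusted p = 0.778), and its second probe set differed by -0.21 and -0.01. DNAJB14, an endoplasmic reticulum membrane J protein, differed by -0.11 and -0.45, and all 3 of its probe sets were lower in both lines. DNAJB6, a suppressor of polyglutamine aggregation, differed by -0.41 and 0.11. DNAJB2, DNAJB5 and DNAJB12 lay between -0.23 and 0.02 in both lines.

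Class A J proteins, the closest relatives of bacterial DnaJ, showed no common direction, with 2 of 4 below 0 in each line. DNAJA1 differed by -0.32 and -0.15, with both probe sets lower in both lines. The members DNAJA2, DNAJA3 and DNAJA4 lay between -0.15 and 0.39. DNAJA4 pointed opposite ways in the 2 lines, at -0.15 and 0.39, and its other probe sets past the filter differed by -0.37 and 0.13 in NCI-H727.

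Class C J proteins share only the J domain and serve special sites. Their 14 measured members had medians of 0.06 in QGP1 and -0.06 in NCI-H727, with 4 and 9 below 0. Averaging the probe sets of each gene gave medians of -0.01 and 0.04, so the sign turned in both lines, and a second quantile normalization turned the NCI-H727 median to 0.01. DNAJC10, a disulfide reductase of the endoplasmic reticulum, read 11.5 in DAXX-KD QGP1, against 11.7 in control, and 10.3 in DAXX-KD NCI-H727, against 10.6 in control. Its 5 probe sets were all lower in QGP1, while in NCI-H727 they ranged between -1.03 and 0.79. DNAJC9, a co-chaperone for histones H3 and H4 in the nucleus, differed by 0.06 and 0.15, with both probe sets higher in both lines.

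DNAJC1, of the endoplasmic reticulum membrane, was the other member with every probe set higher in both lines (0.16 and 0.14). The synaptic vesicle J protein DNAJC5 differed by 0.21 and -0.002, and the ribosome-associated DNAJC2 by 0.02 and 0.16. The others, DNAJC6, DNAJC7, DNAJC8, DNAJC12, DNAJC13, DNAJC15, DNAJC16, DNAJC18 and DNAJC21, lay between -0.31 and 0.33 in both lines at the probe set with the highest mean. Further probe sets past the filter lay outside that range. One for DNAJC18 differed by -0.62 and 0.67, one for DNAJC21 by -0.64 in NCI-H727 and one for DNAJC12 by 0.44 in QGP1. DNAJC18 differed by 0.28 and -0.22, but by -0.10 and 0.18 averaged over its probe sets, so its sign turned in both lines.

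Of the 29 members with 2 or more probe sets past the filter, 8 had every probe set lower in both lines, where 7.92% of the 7159 such genes did. They were DNAJA1, DNAJB1, DNAJB4, DNAJB14, HSP90AA1, HSP90AB1, HSPA13 and HSPH1. 2 had every probe set higher in both lines, where 8.1% of such genes did. Most of these differences were under 1.5-fold, and probe sets of a gene share the same arrays, so they are not repeats of the knockdown.

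**Figure D2:**
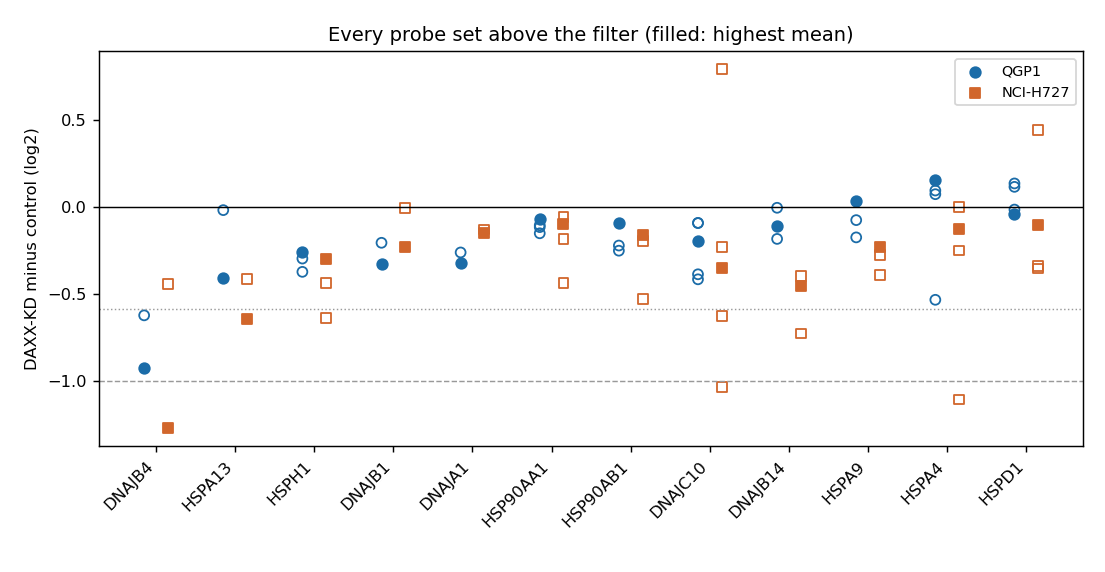
Each symbol is 1 probe set above the filter level, with circles for QGP1 and squares for NCI-H727. Filled symbols mark the probe set that stands for the gene. The vertical axis is the log2 difference of DAXX-KD from control, with dotted and dashed lines at 1.5-fold and 2-fold lower. DNAJB4 lies below 0 at both probe sets, whereas 1 HSPA4 probe set lies at -0.53 and -1.11 apart from its 3 others.

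Genes that HSF1 is classically known to induce made up 15 of the measured members. In QGP1 13 of these 15 were below 0, with a median of -0.08, while 9 of the other 25 were, with a median of 0.05. Over all genes 46.2% were below 0 there. Of the 15, only HSPH1, DNAJA1, DNAJB1 and DNAJB4 differed in QGP1 by more than the SD between probe sets of 1 gene (0.202). In NCI-H727 8 of the 15 were below 0, with a median of -0.04, and 18 of the other 25 were, with a median of -0.11. Over all genes 47.3% were below 0 in that line. With probe sets averaged, 24 of the other 25 passed the filter, and their QGP1 median was -0.04. An x_at or s_at suffix marks probe sets that match several transcripts. Where unsuffixed probe sets were preferred, and suffixed ones kept for genes with no others, 23 passed and the median was -0.01. The sign turned in both settings, over fewer genes than the 25. The 2 subsets were not tested against each other.

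**Figure D3:**
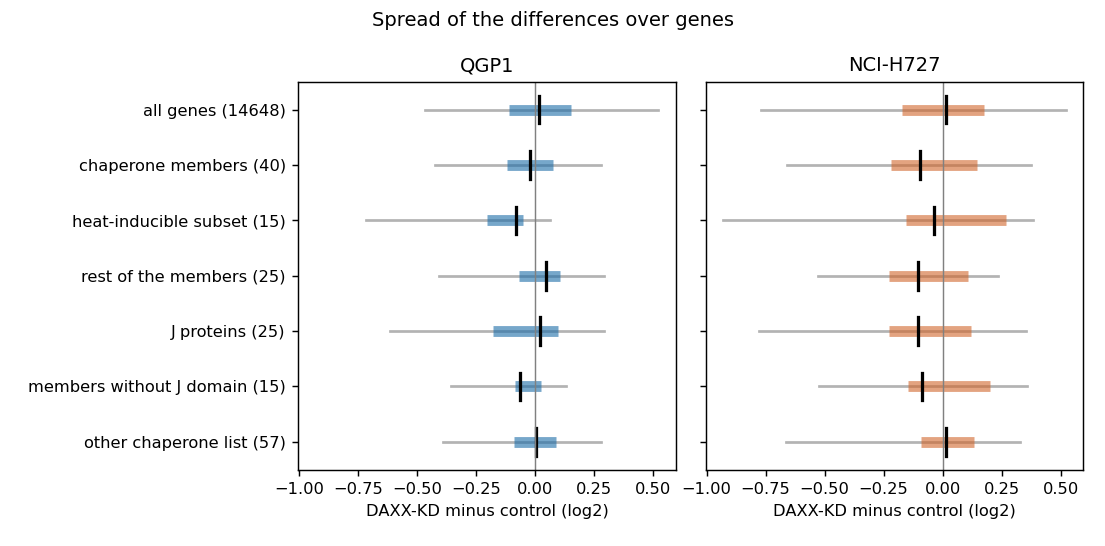
Spread of DAXX-KD minus control (log2, horizontal axis) over genes in QGP1, left, and NCI-H727, right. Black ticks are medians, thick bars the middle 50% of genes and thin lines the central 95%, with the number of genes in parentheses. The median of the 15 heat-inducible members lay at -0.08 in QGP1 and -0.04 in NCI-H727, inside the middle 50% of all genes.

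HSF1 binds heat shock elements, inverted repeats of GAA, which are shown for the measured members whose RefSeq promoter window holds one. The windows (250 bases before to 50 after a start, assembly GRCh38.p14) were searched on both strands for 3 units in a row: GAA, any 2 bases, TTC, any 2 bases, GAA, or the same with GAA and TTC exchanged. Each match includes 1 flanking base at either end, and matches may overlap. Capitals mark the GAA and TTC units, and 1 match per gene is given.
HSPA6 (chr1:161524465-161524479, plus strand): gTTCgcGAAagTTCg
HSPD1 (chr2:197500067-197500081, minus strand): gGAAagTTCtgGAAc
HSP90AA1 (chr14:102087119-102087133, minus strand): cTTCcgGAAggTTCg
HSP90AB1 (chr6:44247830-44247844, plus strand): gTTCtgGAAgcTTCt
CHORDC1 (chr11:90223096-90223110, minus strand): gGAAaaTTCgcGAAg
DNAJA1 (chr9:33025275-33025289, plus strand): gGAActTTCcaGAAc
DNAJB6 (chr7:157336872-157336886, plus strand): aGAAccTTCgcGAAg
Matches were found in 7 of the 38 measured members with a window, and in 0.597% of the 27305 genes of the table. Of the 7, 6 were in the heat-inducible subset, the exception being DNAJB6. Their differences in QGP1 and NCI-H727 were -0.06 and 0.32 for HSPA6, -0.04 and -0.10 for HSPD1, -0.07 and -0.10 for HSP90AA1 and -0.09 and -0.16 for HSP90AB1. CHORDC1 differed by -0.08 and 0.16, DNAJA1 by -0.32 and -0.15 and DNAJB6 by -0.41 and 0.11. All 7 were below 0 in QGP1, where 46.2% of all genes were. In NCI-H727 3 were above 0, where 47.3% of all genes were below 0. Only DNAJA1 and DNAJB6 differed in QGP1 by more than the SD between probe sets of 1 gene (0.202). Other HSPD1 probe sets past the filter reached 0.13 in QGP1. CHORDC1 was at 0.006 there when averaged with a probe set under the filter level. A match describes these letters only and is no evidence of binding.

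Chaperone and co-chaperone genes outside the set also lay close to control. A list of 70 such genes, among them the cytosolic chaperonin TRiC, prefoldin and further J proteins, had 57 past the filter, with medians of 0.002 and 0.01 in the 2 lines. The joint limma fit called 0 of 57. At an unadjusted limma p under 0.05 there were 2 lower (HSPA4L and DNAJC14, beside 4.12% of all genes) and 0 higher (2.8%). HSPA4L, an HSP110 relative, was the 1 gene 1.5-fold lower in QGP1 (1.32% of all genes). It read 8.48 in DAXX-KD QGP1, against 9.24 in control, and 6.61 in DAXX-KD NCI-H727, against 7.57 in control. HSPA2 (-0.60) and DNAJC24 (-0.70) were the other genes 1.5-fold lower in NCI-H727, 3 in all, where 4.96% of all genes were. The prefoldin subunit PFDN4 (0.67) was the 1 gene 1.5-fold higher there (1.6% of all genes).

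Differences between the lines were wider than those between knockdown and control, and 18 members passed the test. In the same limma fit the coefficient for cell line, arrays labelled NCI-H727 minus those labelled QGP1, passed an adjusted p of 0.05 for 18 of the 40 members, 8 higher (DNAJC15 among them, which passed the filter through NCI-H727 alone) and 10 lower, where 23.2% of all genes were higher and 25.1% lower, 48.3% in all. The share among members is near that of all genes. Each line has 2 arrays, which differ in treatment. J proteins, which are 25 of the 40 members, accounted for 14 of the 18. By class, 1 of 4 passed in class A, 3 of 7 in class B and 10 of 14 in class C, DNAJC15 included. Of the 15 members without a J domain 4 passed, where 48.3% of all genes did. Differences between these subsets were not tested.

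DNAJC15, a J protein of the mitochondrial inner membrane also called MCJ and known to be silenced by promoter methylation in some tumours, had the widest gap. It read 11.2 and 10.9 in the DAXX-KD and control arrays labelled NCI-H727, against 4.12 and 4.39 in those labelled QGP1. Both QGP1 values lie under the filter level of 4.85, where RMA compresses differences, so the gene passed the filter through NCI-H727 alone and its difference has only a bound. With QGP1 set to the filter level, NCI-H727 was at least 73.3-fold higher. No p-value is given for it, since that would rest on QGP1 values under the filter level. A second probe set had the same direction, at 6.97 and 7.19 in NCI-H727, against 3.89 and 3.65 in QGP1, at least 4.67-fold higher by the same rule. The 3rd was under the filter level in all 4 arrays and differed by 0.41.

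The RefSeq promoter window of DNAJC15 is shown because no other member differed as much between the lines, with the first 50 transcribed bases in capitals (assembly GRCh38.p14).
DNAJC15 (chr13:43023336-43023635, plus strand): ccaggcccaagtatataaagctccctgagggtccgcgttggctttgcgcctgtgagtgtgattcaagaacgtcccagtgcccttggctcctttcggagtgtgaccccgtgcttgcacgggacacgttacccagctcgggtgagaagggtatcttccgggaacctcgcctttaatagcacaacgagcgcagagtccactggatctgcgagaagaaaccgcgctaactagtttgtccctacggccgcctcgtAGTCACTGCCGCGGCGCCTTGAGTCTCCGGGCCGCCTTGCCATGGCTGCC
It holds 24 CG dinucleotides, and 33.9% of all windows hold as many or more. Methylation was not measured.

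CHORDC1 read 11.6 and 11.4 in the DAXX-KD and control arrays labelled NCI-H727, against 10.4 and 10.5 in those labelled QGP1. It was 2.16-fold higher in NCI-H727 (log2 difference 1.11, SE 0.14, limma adjusted p = 0.0022). STIP1 read 10.5 and 10.3 in NCI-H727, against 9.50 and 9.48 in QGP1, and its second probe set was higher by 0.85. Both proteins act with HSP90, whose own genes did not pass the test (HSP90AA1 0.03, HSP90AB1 -0.32, limma adjusted p = 0.0977 for the second). For HSP90AB1 this depended on the setting. It passed as lower with probe sets averaged (-0.43, limma adjusted p = 0.0238) and with an intensity trend in the prior (limma adjusted p = 0.00656).

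Among J proteins higher in NCI-H727, DNAJC16 read 9.11 and 9.25, against 8.14 and 8.15 in QGP1. DNAJC8, found with splicing complexes, read 10.7 and 10.6 in NCI-H727, against 9.74 and 9.63 in QGP1. DNAJA3, a mitochondrial J protein, read 10.51 and 10.64 in NCI-H727, against 10.11 and 10.01 in QGP1. DNAJB2 and DNAJC1 also passed, at 0.48 and 0.46. Limma adjusted p-values of these 5 genes lay between 0.0024 and 0.0334, and all were higher in 2 of 2 array pairs.

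The 10 members lower in NCI-H727 were 8 J proteins, HSPA13 and HSPE1. DNAJC12, a partner of the aromatic amino acid hydroxylases that begin serotonin and dopamine synthesis, read 10.6 and 10.9 in NCI-H727, against 11.9 and 11.9 in QGP1, a 2.24-fold lower level (log2 difference -1.16, SE 0.15, limma adjusted p = 0.0025). One of its 3 probe sets differed by 0.12. DNAJC6, the auxilin that uncoats clathrin vesicles in neurons, read 10.4 and 10.7 in NCI-H727, against 11.6 and 11.7 in QGP1, 2.11-fold lower in NCI-H727. DNAJC10 was 2.14-fold lower, and all 5 probe sets were lower, between -2.17 and -1.01.

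DNAJC18 was 2.36-fold lower, at 6.44 and 6.66 in NCI-H727, against 7.93 and 7.65 in QGP1. The endosomal DNAJC13 read 7.65 and 7.81 in NCI-H727, against 8.68 and 8.36 in QGP1, which is 1.73-fold lower, but averaged over its probe sets the limma difference was -0.34 with an adjusted p of 0.0645. That average takes in probe sets under the filter level (means of 3.98 and 3.16). HSPA13 passed at -0.72, but its second probe set differed by 0.39, and averaged over its probe sets the limma difference was -0.16 with an adjusted p of 0.341. DNAJB1 (-0.52), DNAJB4 (-0.50), DNAJC9 (-0.46) and HSPE1 (-0.40) passed in limma with adjusted p-values between 0.0234 and 0.0483. All 4 lost the call under at least 1 alternative.

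**Figure D4:**
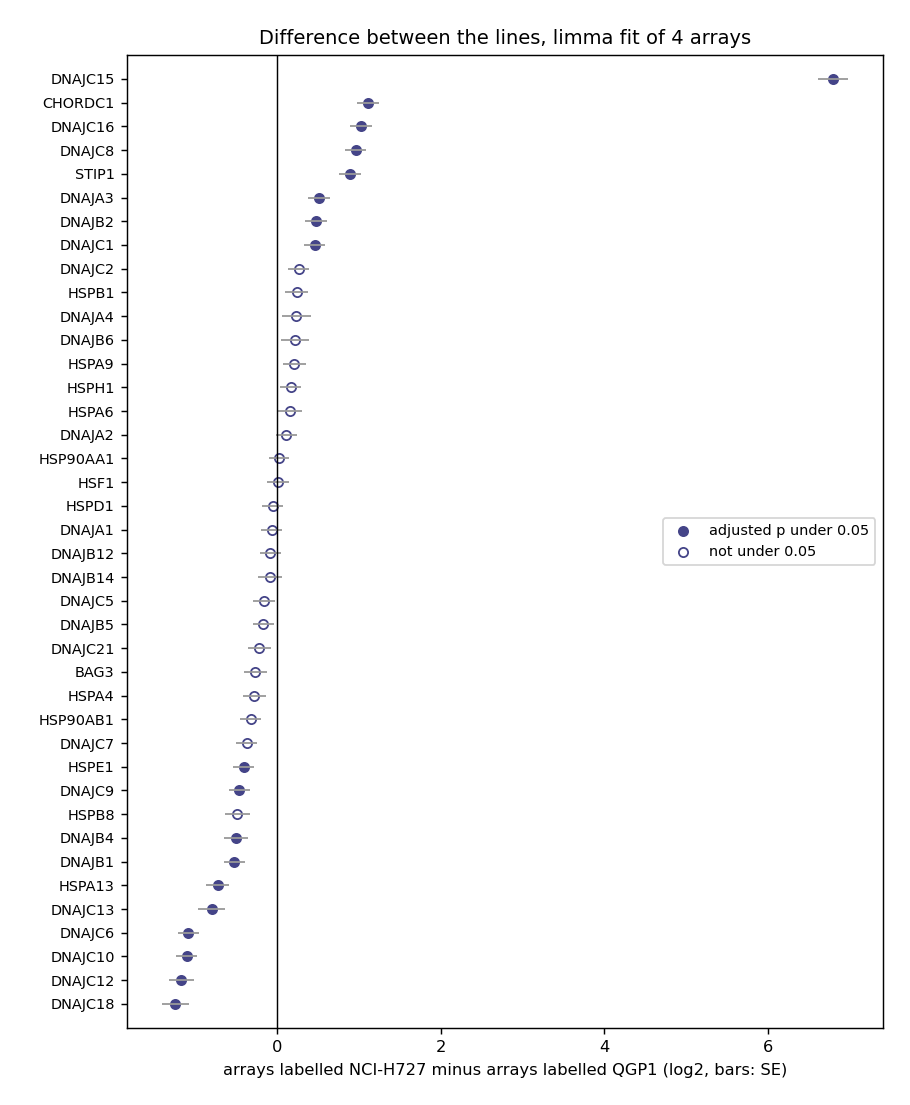
Limma difference between arrays labelled NCI-H727 and arrays labelled QGP1 for each of the 40 members, in log2 on the horizontal axis, with the SE as bars and 2 arrays per line. Filled points passed an adjusted p of 0.05. The point for DNAJC15 rests on QGP1 values under the filter level and its exact place is not a measured difference, and the others lie between -1.24 and 1.11.

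The 22 members that did not pass lay between -0.48 and 0.27, and the closest to the threshold was HSPB8 (adjusted p = 0.0501). HSF1 was at 0.02, HSPD1 at -0.05 and HSPH1 at 0.17. Without x_at and s_at probe sets, HSPD1 was at -0.73 (limma adjusted p = 0.0175) and HSPH1 at -0.91 (0.00615), so both passed as lower. Probe sets disagreed for some of them. DNAJA4 differed by 0.24 at the probe set with the highest mean, but was at least 8.56-fold and at least 9.70-fold higher in NCI-H727 at its 2 others past the filter, with QGP1 values under the filter level set to that level. The first of these read 7.85 and 8.22 in DAXX-KD and control NCI-H727, against 4.72 and 5.02 in QGP1, and the second 8.20 and 8.07 in NCI-H727, against 3.49 and 3.81 in QGP1. One HSPA4 probe set was lower by 3.04 in NCI-H727, while its 3 others differed by -0.27 to -0.19. Of the 29 members with 2 or more probe sets past the filter, 20 had all of them on the same side, where 66.1% of such genes did.

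**Figure D5:**
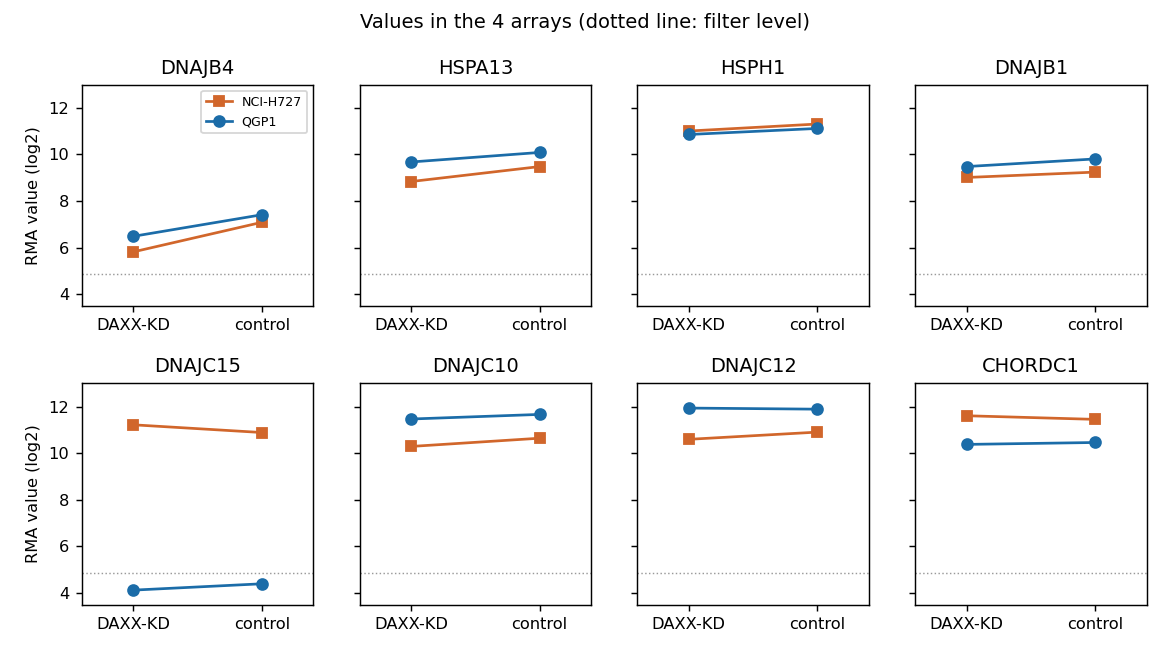
RMA values on the log2 scale (vertical axis) in the DAXX-KD and control arrays of NCI-H727 (squares) and QGP1 (circles), 1 array per point, for 8 chaperone genes. The dotted line is the filter level of 4.85. DNAJB4 and HSPA13 lie lower in both DAXX-KD arrays, and DNAJC15 lies under the dotted line in both QGP1 arrays, far below both NCI-H727 arrays.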

How the data were processed

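Total RNA of 4 samples was measured on 4 Affymetrix arrays with a 3' IVT kit, per the labels' protocols. The submitters' processing notes name RMA, affy 1.40.0 and R 3.0.3 for the log2 values the authors deposited. This method corrects background, equalizes the arrays' distributions and narrows differences near background. Of 54613 probe sets, 41091 had 1 gene symbol in the platform annotation, 1801 several and 11721 none, and the last 2 kinds were left out. The probe set brightest on average stood for each gene. A low-signal filter at the 40th percentile of probe set means (4.85) left 14648 genes.

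Differences within a line were described by size. The joint fit (limma 3.58.1, R 4.3.3, two-sided, Benjamini-Hochberg over all 14648 genes) had terms for treatment and cell line, 1 residual degree of freedom and a prior of 4.18. The number of arrays limits the precision. Alternatives changed the probe set rule, the filter, the normalization, the prior and the model terms. Averages over probe sets took in those under the filter level. Members and lists were chosen with earlier results of these data known. Values in all 4 arrays are given for members past 1.5-fold in either line, for 9 core chaperones and regulators, and for the 6 highest and 6 lowest between lines. Values of further members were chosen after they were seen. Promoter windows came from RefSeq (GRCh38.p14), matched by symbol for 42 of 44 members.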

Additional observations from a re-analysis of the deposited data

Results flagged for a closer look

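DNAJC15 is given here because its differences pointed opposite ways in the 2 lines, each by more than the SD between probe sets of 1 gene in that line. The DAXX-KD minus control difference was 0.33 in NCI-H727 and -0.27 in QGP1, 0.60 apart. The QGP1 values lie under the filter level, and the second probe set pointed the other way in each line, at -0.22 in NCI-H727 and 0.24 in QGP1. The difference between the lines was not tested, since 1 array per group leaves no error for it.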

How the results depend on the processing

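Under each of the 8 alternatives to the joint limma fit, 0 members passed an adjusted p of 0.05, with DNAJB4 between 0.114 and 1 (the last without the cell line block). An intensity trend in the prior let 5 genes pass, none of them a member. The count of members at least 2-fold lower in NCI-H727 was 1, but 0 with probe sets averaged and 2 with unsuffixed probe sets preferred. The count at least 1.5-fold lower there was 2. It was 1 with the mean of probe sets, 1 after a second quantile normalization and 5 with that preference. The preference kept x_at and s_at probe sets for genes with no others. HSPH1 between the lines was 0.17, and it turned to -0.91 (limma adjusted p = 0.00615) at its unsuffixed probe set. In limma the line calls of DNAJB1 (adjusted p = 0.192), DNAJC13 (0.0645), DNAJC9 (0.0752) and HSPA13 (0.341) were lost with the mean of probe sets. For DNAJC13 and DNAJC9 that mean takes in probe sets under the filter level, and both DNAJC9 probe sets past it were lower (-0.46 and -0.51). The line calls of DNAJB4 (0.0557) and HSPE1 (0.0632) were lost with no filter, and DNAJB4 (0.444) and HSPA13 (0.0675) with cell line alone in the model. HSPE1 (0.0562) also lost its call where unsuffixed probe sets were preferred. Its 1 probe set, an s_at, was kept there and its difference stayed at -0.40. With the mean of probe sets HSPA4 (-0.93), DNAJB14 (-0.45) and HSP90AB1 (-0.43) passed. DNAJA4 also passed there, but its averaged QGP1 values lie under the filter level. It thus passed the filter through NCI-H727 alone, and its difference has no exact size. At unsuffixed probe sets HSPA4 (-3.04), DNAJB14 (-1.24) and HSPD1 (-0.73) passed. With the intensity trend HSP90AB1 (-0.32) passed. The cause was not tested. Of the comparisons, 77 counts and medians and 775 single values kept their direction and side of the threshold or moved by less than the SD between probe sets, 9 single values moved by more, 8 gained and 9 lost a call, and 1 turned. Without 1 array the blocked fit has no residual degree of freedom, so it gives no test. No paired analysis by replicate number was possible because the labels give no replicate numbers; cell line was the block, and without it 0 members passed.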
